A study of Arabidopsis thaliana with 9 samples.

Results

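Transcripts of 4 hormone-response genes were followed in dark-grown Arabidopsis seedlings: the auxin response genes IAA29 (AT4G32280), GH3.3 (AT2G23170) and AT2G18010, and the gibberellin receptor gene GID1B (AT3G63010). They were chosen with earlier results of these data known, and taken by name from the array annotation. Each was named by 1 probe set, so 4 of the 22746 probe sets tested are described. AT2G18010 carries the synonym SAUR10 in the RefSeq gene table. Whole Arabidopsis thaliana seedlings, germinated on plates and kept in the dark until harvest at 10 days, were measured on 9 Affymetrix arrays with 1 colour. Wild type Col-0, L17 (labelled a phyA' line) and sps1 had 3 arrays each, all on the Col-0 background and without further treatment. The alleles or transgenes behind L17 and sps1 are not stated in the labels. Separate plantings for the arrays of a line are not stated either, and the p-values then reflect array-to-array spread, which may be technical.

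Auxin and gibberellin both promote the elongation of the hypocotyl of a seedling kept in the dark. Auxin is bound by TIR1/AFB receptors, which mark Aux/IAA repressor proteins for degradation and so release the transcription factors that drive the early auxin response genes. These early genes fall mainly into the Aux/IAA, GH3 and SAUR families. Aux/IAA proteins feed back on the response, GH3 enzymes join auxin to amino acids and lower its free pool, and SAUR proteins promote cell expansion. Gibberellin is bound by the GID1 receptors, which then hold DELLA repressors of growth so that these are degraded. Transcripts of GID1 receptor genes are known to be kept lower when gibberellin action is high.

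Of 2 genes listed as dark-seedling markers 1 was named, the protochlorophyllide reductase gene PORB. It read 1673 to 2730 in wild type, 4054 to 5188 in L17 and 3596 to 4669 in sps1. Of 10 root markers 2 were named, the root hair expansins EXPA7 and EXPA18, and their summed signal was 45.7 to 127 in wild type, 55.3 to 85.5 in L17 and 7.26 to 39.9 in sps1. Both were dim, at 2.3 to 58.6 for EXPA7 and 3.3 to 80.0 for EXPA18 on single arrays. Neither differed between any lines at an adjusted p under 0.05 (limma, 0.102 to 0.756). In L17 against wild type their log2 differences had opposite signs (-0.86 and 0.58). No ungerminated seed marker (0 of 10) and no light harvesting marker (0 of 3) was named. The third wild type array stood apart, with 2794 probe sets differing over 2-fold from the rest of its line, against 477 to 1351 on the remaining 8 arrays. The summed signal of 3 of 10 heat stress markers (AT2G29500, AT1G53540 and ATHSP22.0) was 17742 on that array, 390 and 437 on the remaining wild type arrays, and 315 to 744 in L17 and sps1. The 3' to 5' signal ratio of one pair of ubiquitin control probe sets was 1.8 to 1.96 in wild type, 2.24 to 2.43 in L17 and 2.41 to 2.53 in sps1, while a second pair gave overlapping ranges of 0.931 to 1.27, 1.06 to 1.27 and 1.06 to 1.46. The actin and GAPDH pairs also overlapped between the lines, at 2.30 to 3.09 and 1.00 to 1.45 over all arrays. The part of these differences in the results was not tested. In whole seedlings, fewer cells of a type and less RNA per cell cannot be told apart.

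In L17, IAA29 rose against wild type, and in sps1 AT2G18010 rose while GH3.3 and GID1B fell. The changes were between 1.53-fold and 1.78-fold, and none of these 4 calls held when the third wild type array was left out. Other arrays mattered too. With each of the 9 arrays left out in turn, IAA29 and GID1B kept their calls in 0 fits, GH3.3 in 2 and AT2G18010 in 6. A gene was called at an adjusted p under 0.05 from limma, fitted to log2(signal + 16) of all probe sets. In L17 against wild type 1 of the 4 genes was called higher and 0 lower, while 11.4% of all probe sets were called, 5.32% higher and 6.12% lower. In sps1 against wild type 1 was called higher and 2 lower, while 14.6% of all probe sets were called, 6.68% higher and 7.94% lower. Between sps1 and L17 it was 0 of 4, while 6.86% of all probe sets were called, 3.14% higher and 3.72% lower in sps1. At an unadjusted p under 0.05 the numbers of probe sets were 5827, 6465 and 4644 in the same order, and 2 of the 4 genes (IAA29 and GID1B) had an unadjusted limma p under 0.05 between sps1 and L17. Both comparisons with wild type share the wild type arrays. As the 4 genes were chosen with earlier results known, their counts beside these shares are a description and not a test.

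IAA29 encodes an Aux/IAA repressor whose transcript is induced by auxin. Its signal was 592.0, 613.8 and 412.3 on the wild type arrays, 879.6, 759.0 and 1019.8 on the L17 arrays, and 643.1, 686.7 and 610.3 on the sps1 arrays. All L17 arrays lay above all wild type and all sps1 arrays, whereas sps1 and wild type overlapped by a narrow margin. The line means were 539 ± 111 (wild type), 886 ± 131 (L17) and 647 ± 38.4 (sps1), as mean ± SD with n = 3. IAA29 was 1.64-fold higher in L17 than in wild type on the scale of signal + 16, a log2 difference of 0.71 with a 95% interval of 0.29 to 1.13 (limma adjusted p = 0.0391). A larger change in either direction was found for 14.6% of all probe sets. The call was lost with any of the 9 arrays left out, at adjusted p of 0.0511 to 0.123. The log2 difference was 0.53 once the third wild type array was removed. For sps1 against wild type the log2 difference was 0.27, with an interval of -0.14 to 0.69 (limma adjusted p = 0.381). Between sps1 and L17 it was -0.44, with an interval of -0.85 to -0.02 (limma adjusted p = 0.221), so the order of the levels was L17, sps1, wild type, with no neighbouring pair past the threshold.

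GH3.3 encodes an enzyme that joins auxin to amino acids, and its transcript is an early marker of the auxin response. It read 1543.0, 1789.0 and 2010.6 in wild type, 1369.7, 1471.4 and 1627.2 in L17, and 960.1, 1252.4 and 1264.1 in sps1. Every sps1 array was below every array of the other lines, and L17 overlapped wild type. From highest to lowest the means were wild type, L17 and sps1, at 1781 ± 234, 1489 ± 130 and 1159 ± 172 (SD, n = 3). GH3.3 was 1.53-fold lower in sps1 than in wild type, a log2 difference of -0.62 with a 95% interval of -0.99 to -0.24 (limma adjusted p = 0.0372). The call held when wild type replicate 1 (0.0396) or L17 replicate 3 (0.0480) was removed and was lost with any of the other arrays left out (adjusted p between 0.0549 and 0.111). Without the third wild type array the log2 difference was -0.52. For L17 against wild type it was -0.25, with an interval of -0.62 to 0.12 (limma adjusted p = 0.383). For sps1 against L17 it was -0.37, with an interval of -0.74 to 0.01 (limma adjusted p = 0.253).

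AT2G18010 (SAUR10) belongs to the SAUR family of short auxin-induced transcripts. Its signal was 201.0, 217.1 and 140.6 in wild type, 327.5, 364.6 and 254.6 in L17, and 287.3, 355.8 and 378.9 in sps1. Both lines lay above wild type on every array, and they overlapped with each other. The means were 186 ± 40.3, 316 ± 55.9 and 341 ± 47.7 (SD, n = 3). In sps1 it was 1.78-fold higher than in wild type, a log2 difference of 0.83 with a 95% interval of 0.37 to 1.29 (limma adjusted p = 0.0273). In L17 the log2 difference was 0.72, with an interval of 0.26 to 1.18, and did not pass (limma adjusted p = 0.0550). It passed there with a pseudocount of 64 (adjusted p = 0.0309), among the brighter probe sets (0.0171) and with array weights (0.0253). These were 3 of 8 alternatives, and under the rest it did not pass (limma adjusted p up to 0.105). Nor did it pass in L17 with any of the 9 arrays left out (0.0547 to 0.173). Removing sps1 replicate 2 (limma adjusted p = 0.0858), sps1 replicate 3 (0.0951) or the third wild type array (0.0530, log2 difference 0.66) ended the sps1 call. The interval for sps1 against L17, -0.35 to 0.57 around a log2 difference of 0.11, included no difference (limma adjusted p = 0.833), and the sign turned to -0.03 without L17 replicate 3.

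GID1B encodes one of the 3 GID1 gibberellin receptors of Arabidopsis. It read 409.7, 410.2 and 647.5 in wild type, 452.5, 427.0 and 413.0 in L17, and 297.0, 319.1 and 214.6 in sps1. Every sps1 array was below all others, and L17 lay within the range of wild type. The means were 489 ± 137, 431 ± 20.0 and 277 ± 55.1 (SD, n = 3), and in wild type replicate 3 was the high array. In sps1 the gene was 1.71-fold lower than in wild type, a log2 difference of -0.77 with a 95% interval of -1.26 to -0.29 (limma adjusted p = 0.0433). The call was lost with any of the 9 arrays left out (adjusted p between 0.0518 and 0.136), and the log2 difference without the third wild type array was -0.56. For L17 against wild type it was -0.14, with an interval of -0.63 to 0.34 (limma adjusted p = 0.725), and it turned to 0.07 without that array. For sps1 against L17 the log2 difference was -0.63, with an interval of -1.11 to -0.14 (limma adjusted p = 0.130). Without the third wild type array, which enters that comparison only through the estimate of the spread, the adjusted p was 0.0405.

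**Figure D1:**
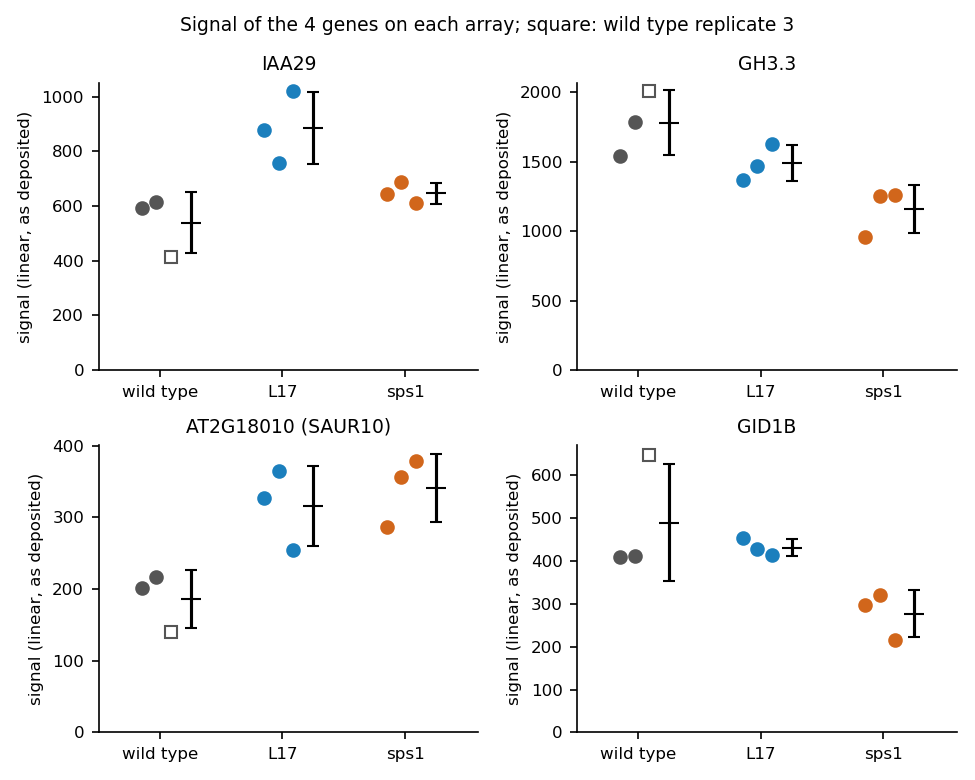
Signal of the 4 genes on each of the 9 arrays on a linear axis from 0, with the mean and SD of each line (n = 3) to the right of its points and wild type replicate 3 as an open square. All L17 arrays were above wild type for IAA29, all sps1 arrays were below both other lines for GH3.3 and GID1B, and both lines were above wild type for AT2G18010.

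The lines did not overlap for 2 of the 4 genes in L17 against wild type (IAA29 and AT2G18010), where this was so for 31.2% of all probe sets. They did not overlap for 3 of 4 in sps1 against wild type (GH3.3, AT2G18010 and GID1B, against 33.4%) and for 3 of 4 in sps1 against L17 (IAA29, GH3.3 and GID1B, against 30.7%). The exact permutation p (two-sided) was 0.10 for each of these differences, the smallest that 3 against 3 arrays allow. The median log2 difference over all probe sets was 0.01, -0.01 and -0.02 in the 3 comparisons, and the median absolute difference 0.28, 0.29 and 0.24. Centring each array on its median moved the median of all probe sets in sps1 against wild type from -0.01 to 0.10, and the share of higher among called probe sets from 45.7% to 60.2%. Under that centring the GH3.3 and GID1B differences in sps1 were -0.51 and -0.66 and no longer passed (limma adjusted p = 0.0660 and 0.0683). Between sps1 and L17 the same centring moved the share of higher calls from 45.8% to 59.3%.

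For each gene the third wild type array lay further from the line in which the gene was called than the other wild type arrays did. On that array IAA29 read 412.3 against a mean of 603 on the other wild type arrays, and AT2G18010 140.6 against 209, log2 differences of -0.53 and -0.52. GH3.3 read 2010.6 against 1666 and GID1B 647.5 against 410, log2 differences of 0.27 and 0.64. Between 25.5% and 57.2% of all probe sets differed by more than these genes on that array. With this array removed, 0 of the 4 genes passed in either comparison with wild type, and 1 (GID1B) passed between sps1 and L17. The directions of the 4 called differences held without it, with log2 differences of 0.53, -0.52, 0.66 and -0.56 against 0.71, -0.62, 0.83 and -0.77 with all arrays, for IAA29 in L17 and for GH3.3, AT2G18010 and GID1B in sps1.

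**Figure D2:**
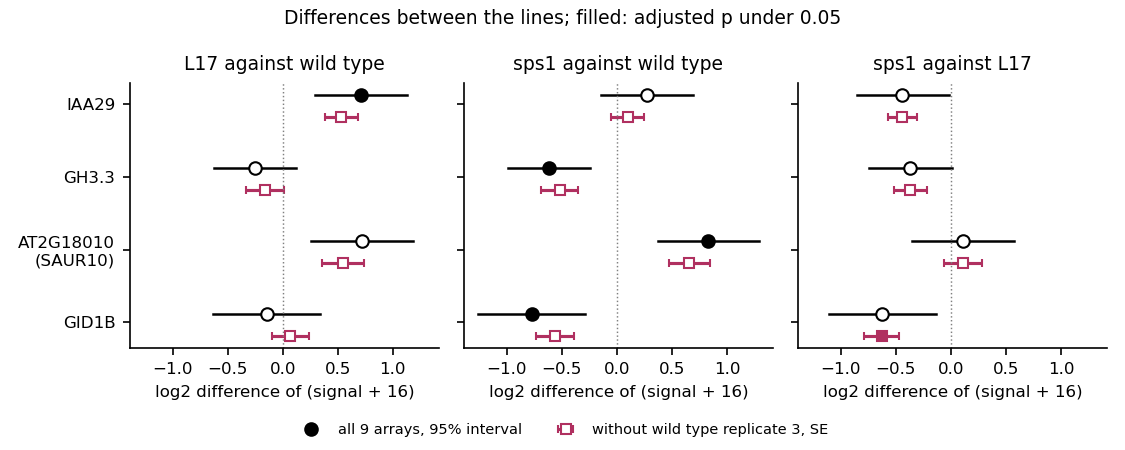
Log2 differences of (signal + 16) between the lines for the 4 genes: circles with 95% intervals from all 9 arrays, squares with SE without wild type replicate 3, filled where the adjusted p was under 0.05. Of the 12 differences 4 are filled with all arrays, and without that array GID1B in sps1 against L17 is the one filled square.

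**Figure D3:**
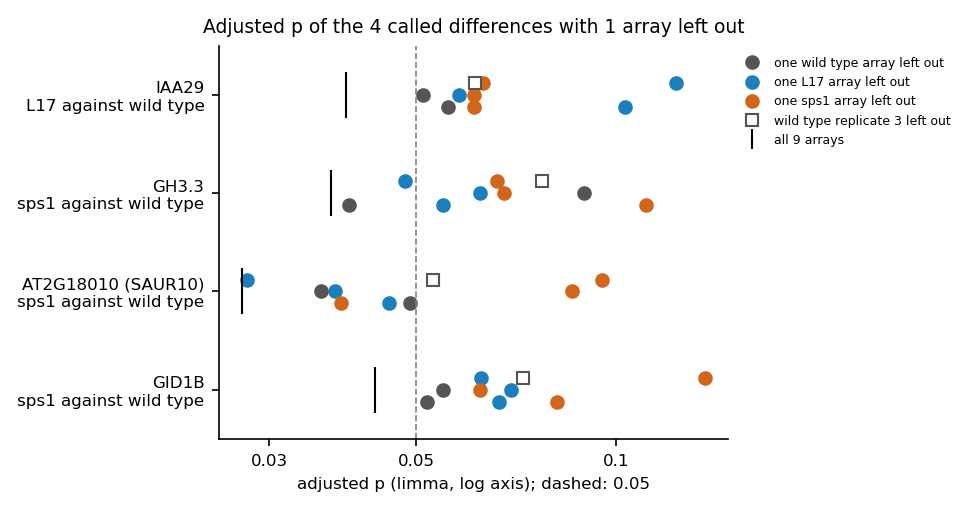
Adjusted p (limma, log axis, dashed line at 0.05) of the 4 called differences with all 9 arrays (bar) and with each single array left out (points, coloured by line). All 9 points lie to the right of the line for IAA29 and GID1B, 7 for GH3.3 and 3 for AT2G18010.

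Around these genes, 33 genes of the auxin, gibberellin and dark growth lists were named on the array, the 4 genes included. Of these, 2 were higher and 0 lower in L17 against wild type (6.06% called, against 11.4% of all probe sets). In sps1 against wild type 7 were higher and 3 lower (30.3%, against 14.6% of all probe sets), and between sps1 and L17 3 were higher and 0 lower in sps1 (9.09%, against 6.86%). With the third wild type array removed 5, 7 and 7 were past the threshold in the same order of comparisons. Apart from the 4 genes, which were chosen with earlier results known, 29 list genes were named. With all arrays 3.45% of the 29 were called in L17 (1 higher, 0 lower). In sps1 against wild type it was 24.1% (6 higher, 1 lower), and between sps1 and L17 10.3% (3 higher, 0 lower). The lists too were chosen with earlier results known. The lists of auxin receptors and ARF factors, auxin transport, gibberellin synthesis and gibberellin inactivation had 0 named members and were not analysed here.

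In the Aux/IAA family 7 of 29 genes were named. IAA20 and IAA34, which encode family members without the motif through which auxin receptors bind Aux/IAA proteins, rose in sps1. IAA20 read 389.7, 344.2 and 488.2 in wild type, 527.0, 564.4 and 506.3 in L17, and 789.6, 758.5 and 916.5 in sps1. The 3 lines did not overlap, with sps1 highest and L17 between. The log2 difference of sps1 from wild type was 0.99 ± 0.16 (SE, limma adjusted p = 0.00382), and the call held with each array left out and under all 8 other alternatives. IAA34 read 82.4, 89.9 and 110.2 in wild type, 109.5, 83.7 and 83.4 in L17, and 196.9, 197.4 and 160.5 in sps1. Wild type and L17 were at one level and sps1 was 1.83-fold and 1.86-fold above them, with log2 differences of 0.87 from wild type and 0.90 from L17 (SE 0.16, limma adjusted p = 0.00813 and 0.0134). The call against wild type held with each array left out. That against L17 was lost without L17 replicate 2 or 3 or sps1 replicate 1 or 2, with adjusted p up to 0.0622. IAA29 was the 1 named Aux/IAA gene past the threshold in L17, and none was called lower in either line. Without the third wild type array 2 were higher in L17 (IAA20 and IAA30) and 3 in sps1 (IAA20, IAA30 and IAA34). IAA30 read 38.8, 38.9 and 121.5 in wild type, the high value being on that array. IAA18 had log2 differences of -0.41 in L17 and -0.50 in sps1 and did not pass (limma adjusted p = 0.114 and 0.0520). Its L17 and sps1 arrays all lay below all wild type arrays. IAA31 and IAA33 had mean signals of at most 26.6 in any line. The median over the 7 genes was -0.03 in L17 and 0.27 in sps1.

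In the GH3 family 5 of 11 genes were named, and GH3.3 in sps1 was the 1 call with all arrays (0 higher, 1 lower). WES1 (GH3.5), which also conjugates auxin, had means of 5345 (wild type), 5418 (L17) and 4742 (sps1), with log2 differences of 0.02 and -0.18. GH3.17 had 1627, 1678 and 1663. GH3.9 and GH3.1 were dim, with means of at most 29.1 in any line. GH3.1 in L17, at -0.90, passed without the third wild type array, at -1.31 (limma adjusted p = 0.0490). The median over the 5 genes was 0.02 in L17 and -0.26 in sps1.

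The SAUR list held 80 genes, of which 3 were named, and in sps1 they did not move one way. AT3G53250 (SAUR57) read 353.5, 376.5 and 169.9 in wild type, 129.0, 157.1 and 75.9 in L17, and 65.7, 40.6 and 52.6 in sps1. Here the lines were separate, with wild type highest and sps1 lowest. In sps1 the gene fell relative to wild type, by a log2 difference of -2.14 ± 0.33 (SE; adjusted p from limma = 0.00362). In L17 the log2 difference was -1.18 (limma adjusted p = 0.0541), and it was -1.53 with the third wild type array removed (0.0122). AT1G43040 (SAUR58) read 27.3, 29.3 and 9.4 in wild type, 7.2, 15.3 and 43.4 in L17, and 171.7, 194.0 and 137.9 in sps1. It was near the floor of the array in wild type and L17 and clearly measured on every sps1 array. It rose in sps1 by a log2 difference of 2.31 ± 0.35 against wild type and was 2.38 ± 0.35 above L17 (SE, limma adjusted p = 0.00337 and 0.00566). The size depended on the pseudocount and the array set, between 1.43 and 3.01 against wild type. The calls of SAUR57 and SAUR58 in sps1 against wild type held with each array left out, whereas that of AT2G18010 did not.

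Of 19 genes of auxin synthesis and release 4 were named, with 1 higher and 0 lower in sps1 against wild type. YUC4, a flavin monooxygenase of auxin synthesis, had dim signals of 4.0 to 12.3 in wild type, 1.0 to 3.3 in L17 and 17.2 to 23.2 in sps1. Its log2 difference in sps1 was 0.59 against wild type (limma adjusted p = 0.0391), a call that held without the first wild type array and was lost with any other array left out (adjusted p up to 0.129), and 0.99 against L17 (0.00760). At such dim signals the size depended on the setting, from 0.22 to 1.31 against wild type and from 0.34 to 2.86 against L17. The call against wild type was also lost with the replicate block, at pseudocounts of 1 and 64 and with only the lines compared, whereas that against L17 held in all 7 alternatives other than leaving out an array and with each array left out.

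Of 12 genes of gibberellin perception and signalling 7 were named, and GID1B in sps1 was the 1 call (0 higher, 1 lower). Its paralogs gave other values. GID1A had means of 987 ± 230, 967 ± 133 and 937 ± 65.8 in wild type, L17 and sps1 (SD, n = 3), with log2 differences from wild type of -0.01 and -0.05. GID1C had 302 ± 91.8, 359 ± 41.6 and 372 ± 45.9, with log2 differences of 0.28 and 0.32. Neither passed (limma adjusted p between 0.388 and 0.982), and whether GID1B differed from them in its change was not tested. On the third wild type array GID1B was high and both paralogs were low, at 727.2 for GID1A and 210.6 for GID1C. The F-box genes SLY1 and SLY2, whose proteins mark DELLA repressors for degradation, had log2 differences of 0.42 and 0.45 in L17 and 0.14 and 0.43 in sps1. SPY and SEC, which encode sugar transferases that modify DELLA proteins, had log2 differences between -0.11 and 0.07. The median over the 7 genes was -0.01 in L17 and 0.07 in sps1. Of 14 loci listed as the GASA family, a name the files do not carry, 6 were measured and 1 was higher in each line. That locus, AT5G59845, read 64 to 93.8 in wild type, 155.7 to 164.5 in L17 and 132.8 to 168.4 in sps1. Both lines lay above wild type, with log2 differences of 0.91 in L17 and 0.80 in sps1 (limma adjusted p = 0.00661 and 0.00932), calls that held with each array left out.

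Of 9 transcription factors of growth in the dark SPT alone was named. SPT, a bHLH factor that restrains growth, read 616.7, 604.9 and 731.1 in wild type, 648.1, 629.4 and 626.3 in L17, and 878.0, 1008.1 and 853.9 in sps1. All sps1 arrays lay above the rest. The log2 difference of sps1 from wild type was 0.48 ± 0.13 (SE, limma adjusted p = 0.0415), and the call held without the third wild type array (0.0198) and was lost with any other array left out (adjusted p up to 0.134).

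**Figure D4:**
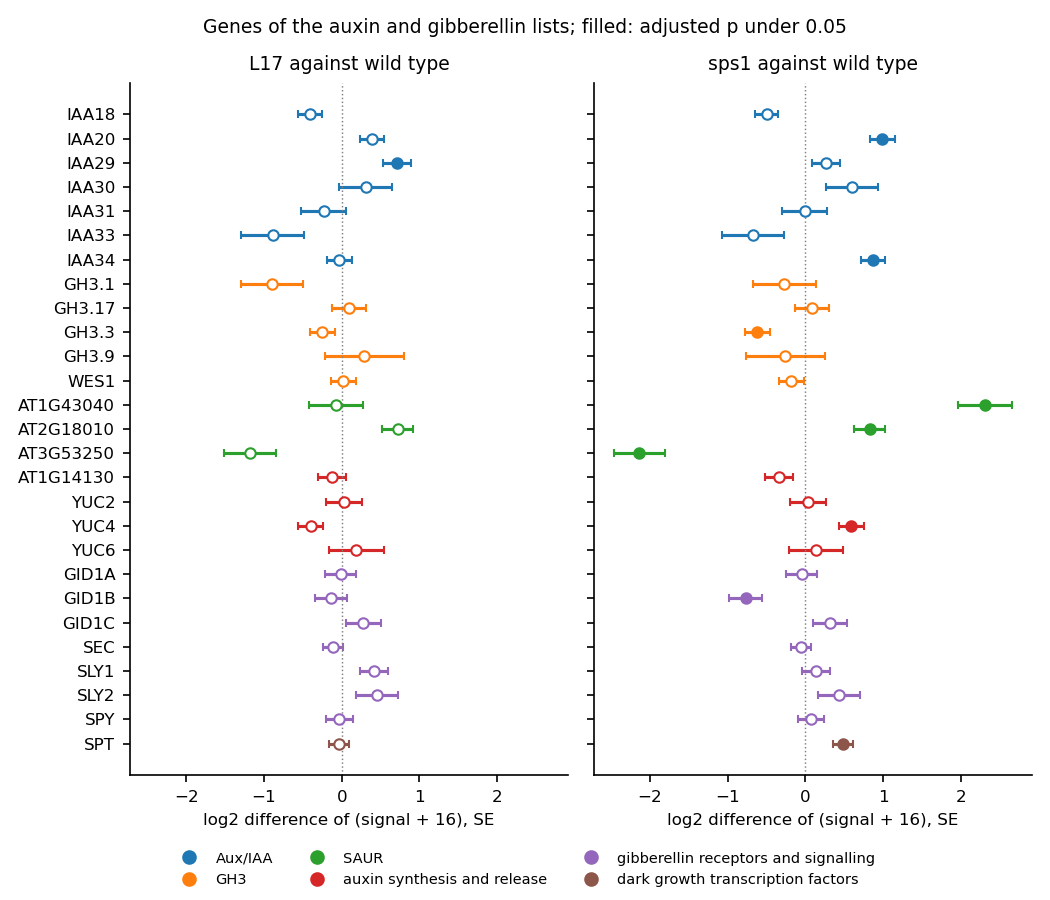
Log2 differences of (signal + 16) with SE for 27 named genes of the auxin, gibberellin and dark growth lists in L17 (left) and sps1 (right) against wild type, filled where the adjusted p was under 0.05. The GASA list, with AT5G59845 called higher in both lines, is not drawn. In L17 IAA29 is the one filled point, and in sps1 IAA20, IAA34, AT1G43040, AT2G18010, YUC4 and SPT lie above 0 and GH3.3, AT3G53250 and GID1B below.

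The 4 genes had different profiles over the 9 arrays. Pearson's r between log2 signals, given as a description over arrays that share their lines, was 0.75 for GH3.3 with GID1B, 0.59 for IAA29 with AT2G18010, and -0.71 and -0.69 for AT2G18010 with GID1B and GH3.3. IAA29 had r of -0.27 with GH3.3 and -0.19 with GID1B. Over the 8 arrays without wild type replicate 3 both of these turned sign, to 0.21 and 0.49. The r of IAA29 with AT2G18010 was then 0.17 and that of GH3.3 with GID1B 0.61, while AT2G18010 had -0.45 with GID1B and -0.50 with GH3.3.

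Among 6875 other probe sets naming 1 gene with a mean signal of at least 100, the profiles most like each gene were listed by r over the 9 arrays. For IAA29 they were SWEETIE (r = 0.980), TBL45 (0.976) and AT4G01897 (0.972), all highest in L17. SWEETIE, named for its part in sugar metabolism, had means of 203 (wild type), 322 (L17) and 238 (sps1). For GH3.3 they were AT1G73200 (0.967), AT2G02870 (0.963) and AT2G47890 (0.952), of which AT2G47890 went from 547 ± 199 in wild type to 165 ± 19.4 in sps1 (SD, n = 3). For AT2G18010 they were the plastid gene cemA (0.984), AT5G55140 (0.978) and AT3G53740 (0.977). The gene cemA, which encodes a protein of the plastid envelope, read 381 ± 151 (wild type), 907 ± 240 (L17) and 1096 ± 346 (sps1). For GID1B they were AT4G19450 (0.958), VPS60.1 (0.956) and AT3G12040 (0.950). Over the 8 arrays without wild type replicate 3, a choice made after seeing the data, r ranged from 0.924 to 0.973 for these genes. AT2G02870 alone ranked 1 for its gene, and the rest ranked from 4 to 26. The genes were picked from 6875 by r over arrays that include these 8, so a high r there is no separate support.

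**Figure D5:**
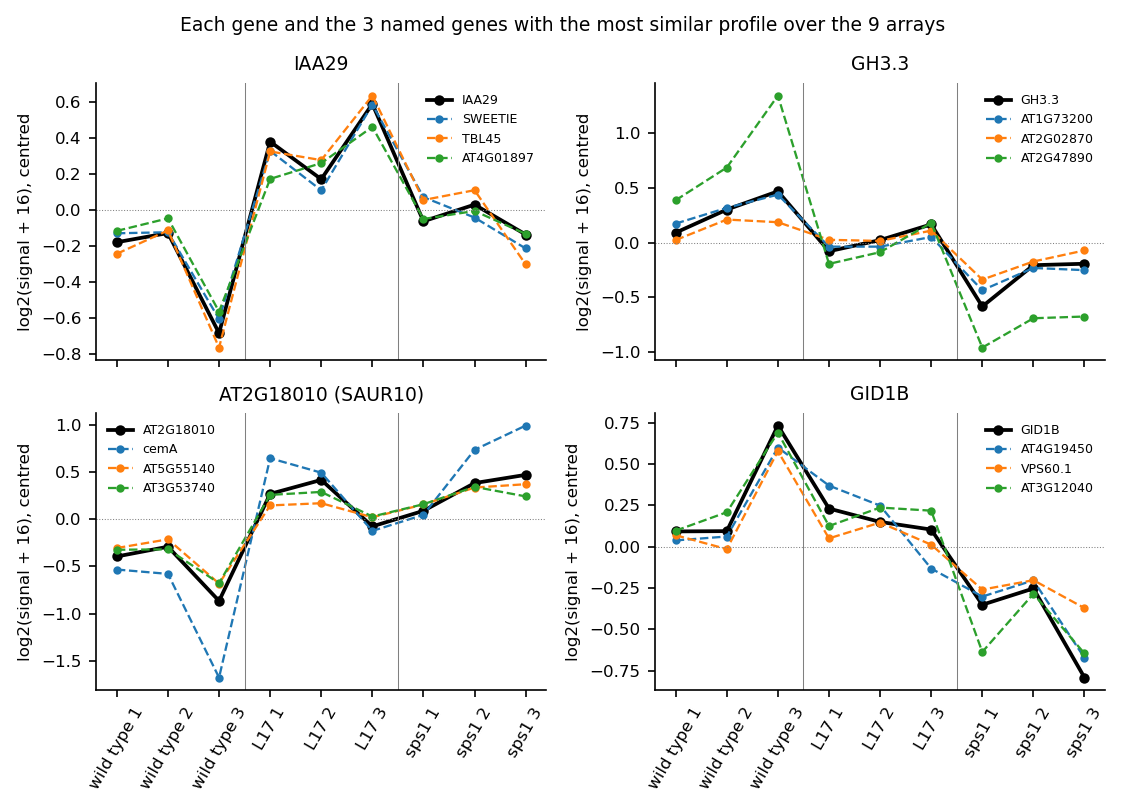
Centred log2(signal + 16) over the 9 arrays for each of the 4 genes (solid black) and the 3 named genes with the highest Pearson r with it (dashed). On the third wild type array IAA29 and AT2G18010 were at their lowest and GH3.3 and GID1B at their highest.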

How the data were processed

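Each array is represented by the intensity of 22810 probe sets, in linear units as the authors deposited it. The submitters' processing notes name GCOS. The method that summarised the probes is not given in the sources used here. Scaling by the authors is visible in the values, since the trimmed mean (2% off each end) equals 500.0 on all arrays. The values were not normalized again. Signals under 16 made up 16.5% to 21.3% of an array.

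After 64 control probe sets were left out, log2(signal + 16) of 22746 on all 9 arrays was modelled by line alone in limma 3.58.1 (R 4.3.3), with empirical Bayes moderation and Benjamini-Hochberg adjustment. The pseudocount understates changes of low signals. In a simulation 100 probe sets were given a log2 change of 1 and another 100 a change of 2. At a change of 1, 32% were recovered in L17 against wild type, 44% in sps1 against wild type and 38% in sps1 against L17. At a change of 2 it was 81%, 80% and 76%. In the same order 10, 0 and 14 unchanged probe sets were called. Fewer probe sets changed there than were called in the data, so these shares are not the recovery of the real fits. The called differences of the members were smaller than 1.

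Names came from the platform annotation and, for names only, RefSeq's TAIR10.1 gene table: 13513 probe sets name 1 gene, 503 several, and 8730 are unnamed here. A gene with several probe sets entered lists by the brightest. Named genes were the 4 members, up to 4 list genes per comparison past the threshold, list genes beside a member, and the 3 most alike profiles. The members and lists were chosen with earlier results of these data known. Same-numbered arrays did not deviate together (r from -0.08 to 0.06 over 9 pairs) and were not paired. The number of arrays limits the precision.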

Additional observations from a re-analysis of the deposited data

How the results depend on the processing

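Of 204 values of the 4 genes under alternatives, 155 kept direction and call, 40 lost a call, 6 gained one and 3 turned sign. No cause was tested. These values pool 12 differences, and only the 4 called ones could lose a call. IAA29 in L17 and GH3.3, AT2G18010 and GID1B in sps1 kept their calls in 5, 5, 7 and 3 of 8 alternatives other than single arrays left out. With each of 9 arrays left out they kept them in 0, 2, 6 and 0 fits. With the replicate block, a pairing the labels do not state, IAA29 in L17 (log2 0.71) and GID1B in sps1 (-0.77) lost their calls and 1013 probe sets differed between sps1 and L17 (1560 without the block). The pseudocount of 1 ended the calls of IAA29 in L17 (0.73), GH3.3 in sps1 (-0.62) and GID1B in sps1 (-0.80). Quantile normalization ended that of GID1B (-0.73), and median centring those of GH3.3 (-0.51) and GID1B (-0.66). Fitting only the lines compared ended all 4 calls (0.71, -0.62, 0.83 and -0.77) and gave 1611 changed probe sets in L17 (2601 with all lines). AT2G18010 in L17 passed at a pseudocount of 64 (0.60), in the brighter probe sets (0.72) and with array weights (0.66), and under no other alternative. GID1B in sps1 against L17 passed in the brighter probe sets (-0.63) and with array weights (-0.67), where 3048 probe sets differed. With array weights, and without the third wild type array, GID1B in L17 turned to 0.03 and 0.07.

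With each array left out in turn, log2 differences ranged from 0.53 to 0.82 for IAA29 in L17, and in sps1 from -0.71 to -0.49 for GH3.3, 0.66 to 0.94 for AT2G18010 and -0.88 to -0.56 for GID1B. Between sps1 and L17 they ranged from -0.03 to 0.22 for AT2G18010 and from -0.73 to -0.46 for GID1B. Those of AT2G18010 in L17 lay between 0.55 and 0.86, and of GID1B in L17 between -0.25 and 0.07. Changed probe sets numbered 1437 to 2596 in L17, 2087 to 3406 in sps1, and 719 to 2626 between the lines. List genes past the threshold numbered 1 to 5, 5 to 8 and 2 to 7.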

Other observations

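A search of the annotation for further auxin genes, made after values had been seen, added 4 genes, given as values with no test. WAG2, a protein kinase that acts on auxin efflux carriers, read 565.6, 557.3 and 325.6 in wild type, 921.8, 1217.4 and 870.7 in L17, and 714.9, 687.4 and 646.0 in sps1. Like IAA29 it was highest in L17 and lowest on the third wild type array. LBD16, an auxin-induced transcription factor of lateral root formation, read 676.8, 611.3 and 428.6 in wild type, 463.7, 390.1 and 411.7 in L17, and 314.8, 359.6 and 367.0 in sps1. All sps1 arrays lay below all others for this gene. LBD29, of the same family, ranged from 43.9 to 121.9 in wild type, from 58.3 to 111.9 in L17 and from 50.9 to 65.4 in sps1, so the lines overlapped. IAGLU, which joins auxin to glucose, had means of 1174 ± 80.0 in L17 and 973 ± 52.4 in sps1. In wild type IAGLU read 1400.4, 1429.0 and 2791.2, with the high value on the third array.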
